A study of Mus musculus with 16 samples.

Results

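The insulin-like growth factor (IGF) system was followed on the polysomes of mouse hepatocytes that express an shRNA against eIF6. Its genes were found by their name in the deposited array files. The 10 names sought were those of the ligands Igf1 and Igf2, the receptors Igf1r and Igf2r, and the binding proteins Igfbp2, Igfbp3, Igfbp4, Igfbp5, Igfbp6 and Igfbp7. All 10 were among the 30214 gene names of the array. A probe was used when its signal was well above background, as the scanner software calls it, on 2 or more arrays of any group, and 9 of the 10 genes had such a probe. The gene without one was Igfbp5, whose probe was well above background on 0 of 16 arrays.

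IGF1 and IGF2 are small secreted hormones related to insulin, and the liver is the main source of circulating IGF1. Both signal through the IGF1 receptor, a tyrosine kinase that is close kin to the insulin receptor, whereas the IGF2 receptor binds IGF2, carries it to lysosomes and also sorts enzymes that bear mannose 6-phosphate. The IGF binding proteins hold the hormones in the blood and around cells, and proteases that cut them set the hormones free.

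AML12 cells are a non-tumorigenic line of hepatocytes from mice that carry a human TGF-alpha transgene. The cells held a doxycycline-inducible lentiviral vector for an shRNA that targets eIF6 or a scramble control, eIF6 being a factor that binds the large ribosomal subunit and keeps it from joining the small one. Doxycycline was given to all of them, and all received insulin for 1 h. The insulin was 100 nM by the sample descriptions, while another label gives that figure in mM. The medium also contained serum, dexamethasone and a supplement with insulin. No array of cells without insulin or without doxycycline was used here, so nothing below measures the response to insulin. The labels do not say which of the shRNA sequences listed in the methods was used.

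Cytoplasmic extracts were separated on sucrose gradients. The heavy fractions were pooled as polysomal RNA, which is bound by several ribosomes, and the light fractions as subpolysomal RNA. Each RNA was hybridized to its own one-colour Agilent array. This made 4 groups of 4 arrays, namely scramble subpolysomal, scramble polysomal, eIF6 shRNA subpolysomal and eIF6 shRNA polysomal, which the methods describe as biological replicates. The arrays lay on 4 slides with 1 array of every group on each. Between 20177 and 24953 of the 39429 probes were well above background per array (median 22530.5), and the precision is limited by how many arrays there are. The signal of the mRNA that the shRNA targets, Eif6, lay between 11.81 and 12 (log2) on the polysomes of eIF6 shRNA cells and between 12.94 and 12.96 on those of scramble cells, a difference of -1.05 ± 0.079 (SE; limma adjusted p = 1.45e-07). In subpolysomal RNA the Eif6 signals of both lines overlapped (11.49 to 11.74 against 11.53 to 11.66). Of 10 hepatocyte markers, 8 were well above background on all 16 arrays, but albumin (Alb) was so on 7 and Apoa1 on 2.

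The signals below are log2 intensities after quantile normalization over the 16 arrays. Signals of different probes are not comparable, so levels are compared only between groups. The polysomal change is the signal in eIF6 shRNA cells less that in scramble cells, on polysomes, the subpolysomal change is its counterpart in the light fractions, and the change in translational efficiency is the first minus the second. A gene was called when its p from limma, with the Benjamini-Hochberg correction across the 19365 genes tested, was under 0.05.

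The probes that the changes below rest on are shown by the first 30 of their 60 bases, in lower case and 5′ to 3′ as the array files give them. Igf1 was the gene with several probes that passed, and its 4 probes did not behave alike. A pair of them overlap by 40 bases, and the capitals mark the 10 shared bases that fall in the stretches shown. The number is the position of the probe in its transcript, and the probe at position 1027 was designed on another Igf1 transcript than the other 3.
Igf1, position 1027: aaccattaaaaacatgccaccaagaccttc
Igf1, position 889: cctaccaaataacaataataAGTCCAATAA
Igf1, position 909: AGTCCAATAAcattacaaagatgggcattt
Igf1, position 3252: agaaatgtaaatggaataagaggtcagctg
Igf2: atcaaattatgtggtaattctgcaatgtag
Igfbp3: gcagttttccaaaaacacagatttcttttc
Igfbp6: ctgtcacccttgggcctttacacagctagt

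In mm9, the build that the files name, the Igf1 probes lie on the plus strand of chromosome 10, at chr10:87378456-87378515 for position 1027, chr10:87393561-87393620 for 889, chr10:87393581-87393640 for 909 and chr10:87395924-87395983 for 3252. The Igf2 probe is on the minus strand at chr7:149839661-149839720, the Igfbp3 probe on the minus strand at chr11:7106594-7106653 and the Igfbp6 probe on the plus strand at chr15:101979852-101979911. The probe of Igf1r lies at chr7:75378461-75378520, that of Igfbp2 at chr1:72898677-72898736 and that of Igfbp4 at chr11:98913334-98913393, all on the plus strand. The probe of Igfbp7 is on the minus strand at chr5:77778271-77778330, and the Igf2r probe, printed in 10 spots, is assigned to chromosome 17. The undetected Igfbp5 probe lies 6.02 kb from the Igfbp2 probe on the opposite strand. No annotation of this build was used here, so exons and UTRs are not given.

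**Figure D1:**
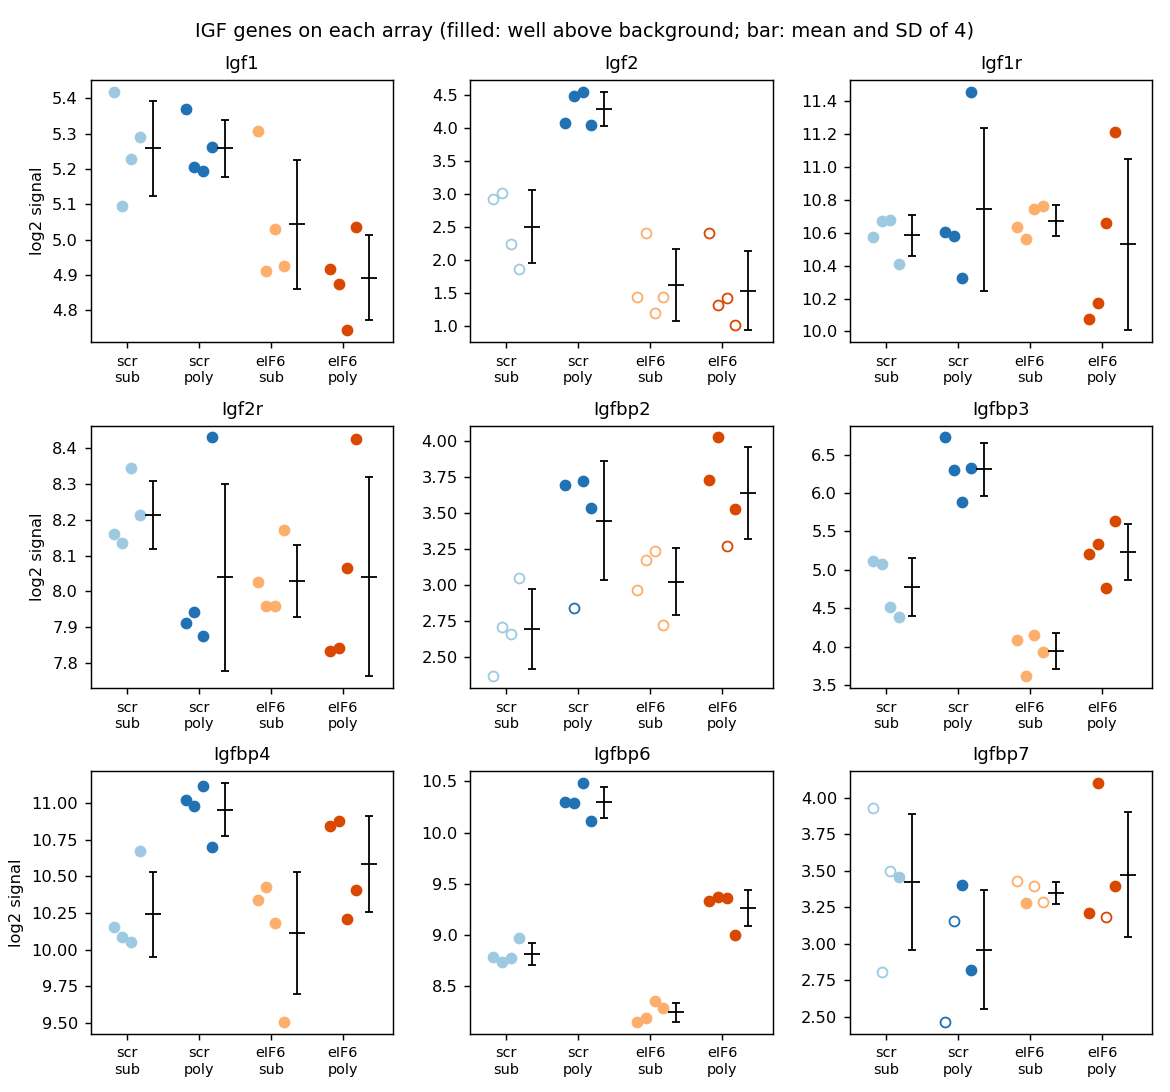
Log2 signal of the 9 IGF genes with a usable probe, in 4 arrays each of scramble (scr, blue) and eIF6 shRNA (eIF6, orange) cells, in subpolysomal (sub) and polysomal (poly) RNA. Filled points were well above background and open points were not, and the black bars give the mean and SD of 4 arrays. Igf2 was well above background only in scramble polysomes, and Igfbp3 and Igfbp6 were lower in eIF6 shRNA cells in both fractions without overlap.

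The first question was which IGF mRNAs differed on polysomes. Of the 9 genes tested, 4 were called lower in eIF6 shRNA cells (Igf1, Igf2, Igfbp3 and Igfbp6), where 10.7% of all genes tested were called lower. None (0 of 9) was called higher by limma, and 0 were higher at an unadjusted p under 0.05, where 11.1% of all genes tested were called higher. The median difference of the 9 genes was -0.37, against 0.02 for all genes tested. Igf2 had passed the background filter through the scramble polysomes alone. Without it 3 of 8 genes were called lower, and of the 6 genes well above background on all 16 arrays 3 were.

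In subpolysomal RNA 2 of the 9 were called lower, Igfbp3 and Igfbp6, where 12.3% of all genes tested were. None (0 of 9) was called higher by limma, and 0 were higher at an unadjusted p under 0.05, where the share over all genes was 11.8%. The median difference was -0.19 for the 9 genes and 0.02 for all genes. With scaling to spike-in probes in place of quantile normalization the median of all genes was -0.47 on polysomes and -0.23 in subpolysomal RNA. Under it 3 of the 9 were called on polysomes, Igf2, Igfbp3 and Igfbp6, and 0 in subpolysomal RNA. Over all genes 1157 and 388 were called under it in these fractions.

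**Figure D2:**
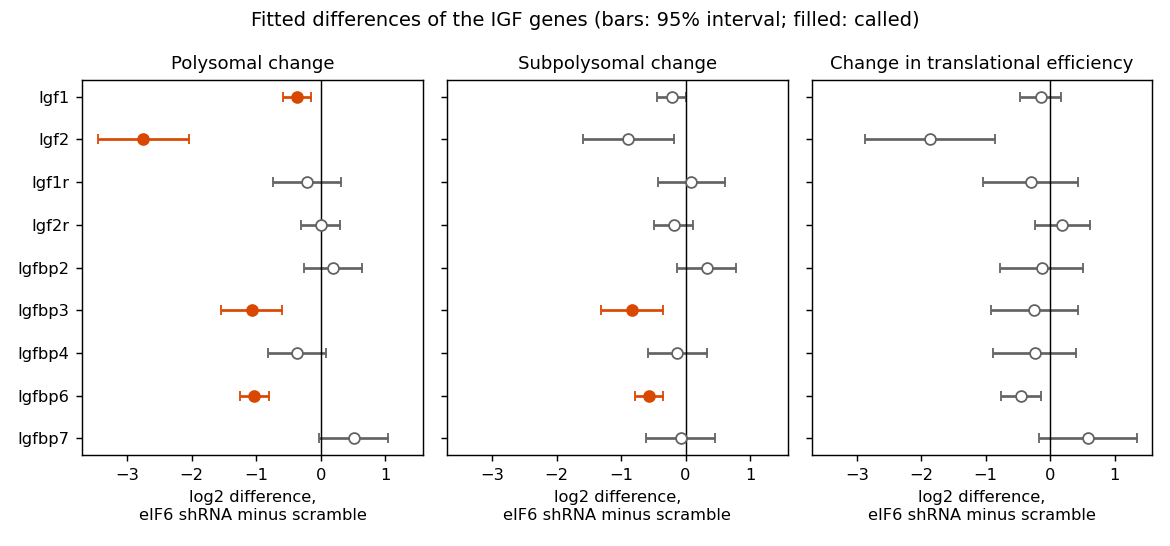
Differences between eIF6 shRNA and scramble cells (log2, x axis) for the 9 IGF genes, in polysomal RNA, in subpolysomal RNA and for translational efficiency. Points are limma estimates from 4 arrays per group, bars are 95% intervals, and filled orange points were called. The values of Igf2 are measured ones, with all groups but scramble polysomes below background. The 4 called polysomal changes and the 2 called subpolysomal changes are all below 0, and no change in translational efficiency was called.

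Igf2, the fetal growth hormone that the adult mouse liver largely silences, showed the largest polysomal difference of the 9. Its signals on scramble polysomes were 4.08, 4.49, 4.55 and 4.06, well above background on 4 of 4 arrays. On eIF6 shRNA polysomes they were 2.41, 1.32, 1.43 and 1.02, none of which was well above background. Every scramble value lay above every eIF6 shRNA value. Igf2 passed the background filter through the scramble polysomes alone, so the filter favoured this separation. Since the lower group was below background, the difference is given as an approximate bound. By it the polysomal signal was at least 2.76-fold lower in eIF6 shRNA cells (limma adjusted p = 1.94e-05). Here and below, the p beside a bound is that of the measured difference and does not test the bound. The measured means were 4.30 ± 0.26 and 1.54 ± 0.60 (SD, n = 4). Within each of the 4 slides the eIF6 shRNA array was the lower one, which the filter favoured too. No sizes are given there, because those arrays were below background. The normexp background correction, which compresses dim signals, gave a difference of -0.38, still called.

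In subpolysomal RNA Igf2 was not well above background on any array of either line. The values were 2.93, 3.02, 2.24 and 1.86 in scramble cells and 1.45, 2.42, 1.20 and 1.45 in eIF6 shRNA cells, which overlap. The measured difference was -0.88 with a 95% interval of -1.59 to -0.17 and was not called (limma adjusted p = 0.068). It was called with the replicate number as a block (adjusted p = 0.045), with normalization before the filter (-1.02, adjusted p = 0.037), in the deposited log2 table (-1.05, adjusted p = 0.038), and when any of 3 arrays was left out: scramble subpolysomal replicate 4 (-1.10), eIF6 shRNA subpolysomal replicate 2 (-1.12) or eIF6 shRNA polysomal replicate 1 (-0.87). No fold is given because both groups were below background.

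Igf1 encodes the main ligand of the IGF1 receptor. The mean signal of its 4 probes was 5.37, 5.20, 5.20 and 5.26 on scramble polysomes and 4.92, 4.87, 4.74 and 5.04 on eIF6 shRNA polysomes. The groups did not overlap, and the difference was -0.37 ± 0.10 (SE; 95% interval -0.59 to -0.15; limma adjusted p = 0.018). Within the slides it ran from -0.46 to -0.28 and was below 0 on 4 of 4. In subpolysomal RNA the averaged Igf1 signals overlapped between the lines, with a difference of -0.21 (-0.43 to 0.01; adjusted p = 0.15). The polysomal call was lost without scramble polysomal replicate 1 (-0.33, adjusted p = 0.064) and without eIF6 shRNA polysomal replicate 3 (-0.31, adjusted p = 0.064).

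The 4 probes of Igf1 gave different accounts, and this was examined after their values had been seen. At the overlapping positions 889 and 909 the polysomal differences were -0.47 and -0.83 (limma adjusted p = 0.16 and 0.094 with each probe as its own feature). At position 909 the scramble polysomal signals were 4.98, 4.63, 4.74 and 4.50 and the eIF6 shRNA signals 3.74, 3.98, 4.03 and 3.76, without overlap. At position 3252 the difference was -0.07 (adjusted p = 0.78), and at position 1027 it was -0.10 (adjusted p = 0.72). The groups overlapped at both.
In subpolysomal RNA the signs differed as well. The differences were -0.63 at position 889 and -0.62 at 909, but 0.22 at 3252 and 0.16 at 1027, and none was called (adjusted p between 0.0502 and 0.46). At position 909 the eIF6 shRNA subpolysomal arrays spread from 2.59 to 4.85. The probe at position 889 was well above background on 11 arrays and that at 909 on 14, whereas those at 3252 and 1027 were so on all 16. The averaged Igf1 difference therefore rests on the first pair, and with the brightest probe alone it was -0.10 and not called. The remaining Igf1 probe, at position 6909, was well above background on no array.

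**Figure D3:**
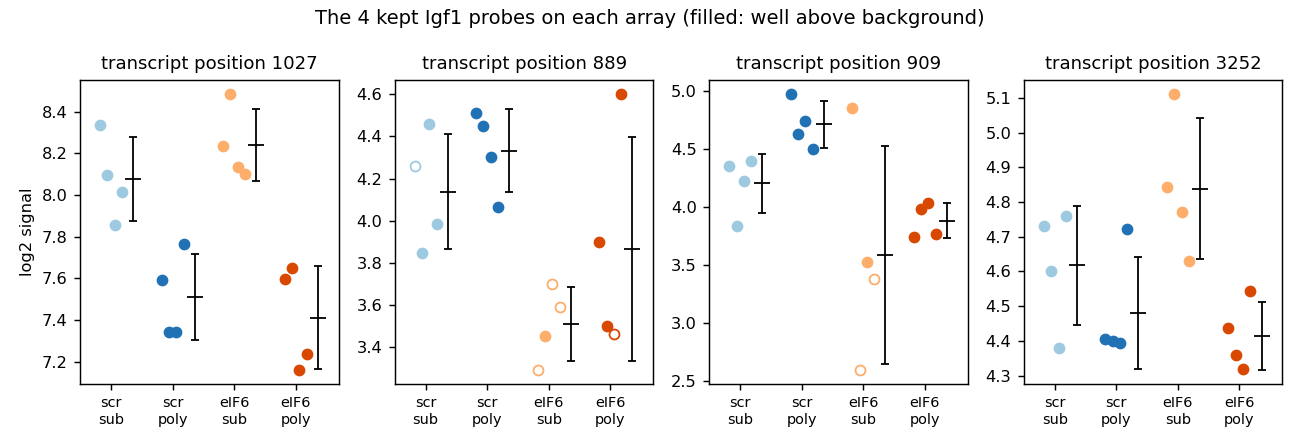
Log2 signal of the 4 usable Igf1 probes on each array, in scramble (scr) and eIF6 shRNA (eIF6) cells, in subpolysomal (sub) and polysomal (poly) RNA. Filled points were well above background, and the black bars give the mean and SD of 4 arrays. The groups of polysomal arrays were apart at position 909 and overlapped at positions 3252 and 1027.

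The receptors showed no called difference. The signals of Igf1r on polysomes were 10.60, 10.58, 10.32 and 11.46 in scramble cells and 10.07, 10.17, 10.66 and 11.21 in eIF6 shRNA cells. The groups overlapped widely, and replicate 4 was the highest in both. The polysomal change was -0.21 with a 95% interval of -0.73 to 0.31 (limma adjusted p = 0.63), and the subpolysomal change was 0.09 (-0.43 to 0.61). The intervals are wide, so a change of either sign remains possible.

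Igf2r, the receptor that clears IGF2, had polysomal signals of 7.91, 7.94, 7.88 and 8.43 in scramble cells and 7.83, 7.84, 8.07 and 8.42 in eIF6 shRNA cells. Replicate 4 was again the highest of each group. The polysomal change was 0.001 (-0.30 to 0.31) and the subpolysomal change -0.19 (-0.49 to 0.12), with adjusted p of 0.997 and 0.39. The deviations of the 2 polysomal arrays numbered 4 from their group means had a correlation of 0.412 over all genes, the highest of the 22 pairs of arrays that share a number and not a slide. The part of that shared deviation in the receptor values was not tested.

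Among the binding proteins, Igfbp3, which carries most IGF in the blood as a complex with the acid-labile subunit, was lower in both fractions. On polysomes its signals were 6.72, 6.30, 5.88 and 6.33 in scramble cells and 5.20, 5.33, 4.77 and 5.64 in eIF6 shRNA cells. In subpolysomal RNA they were 5.12, 5.07, 4.52 and 4.39 against 4.09, 3.62, 4.15 and 3.93. In neither fraction did the lines overlap. The polysomal change was -1.07 ± 0.22 (SE), a 2.10-fold lower signal (limma adjusted p = 0.0024), and the subpolysomal change was -0.83 ± 0.22, or 1.77-fold lower (adjusted p = 0.014). Within the slides these differences ran from -1.54 to -0.68 and from -1.19 to -0.37, below 0 on 4 of 4 slides in both fractions. A second Igfbp3 probe was well above background on no array. The subpolysomal call did not hold with spike-in scaling (-0.98, adjusted p = 0.68) or with the normexp background correction (-0.23, adjusted p = 0.12).

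Igfbp6, a binding protein that prefers IGF2, also fell in both fractions. Its signals on polysomes were 10.30, 10.28, 10.48 and 10.11 in scramble cells and 9.33, 9.37, 9.36 and 9.01 in eIF6 shRNA cells. In subpolysomal RNA they were 8.79, 8.74, 8.78 and 8.98 against 8.16, 8.19, 8.36 and 8.29. The scramble arrays were the higher ones in each fraction, with gaps of 0.74 and 0.37 between the lines. The polysomal change was -1.03 ± 0.10 (SE), 2.04-fold lower (limma adjusted p = 2.94e-06), and the subpolysomal change -0.57 ± 0.10, 1.48-fold lower (adjusted p = 9.17e-04). Both were below 0 on 4 of 4 slides, at -1.30 to -0.74 and -0.78 to -0.41. The polysomal call held under every alternative run. The subpolysomal call was lost with spike-in scaling alone (-0.86, adjusted p = 0.91).

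Markers of stellate cells or fibroblasts were lower in the same comparisons. Of 8 such markers 6 were called lower on polysomes (Col1a1, Col1a2, Col3a1, Acta2, Pdgfrb and Des) and 5 in subpolysomal RNA, beside 10.7% and 12.3% of all genes called lower. The subpolysomal count was 3 with spike-in scaling. The log2 of the summed fibroblast markers ran from 17.31 to 18.07 on scramble polysomes and from 14.73 to 15.42 on eIF6 shRNA polysomes. In subpolysomal RNA it ran from 17.01 to 17.10 and from 15.87 to 16.18. Lrat, which marks quiescent stellate cells, was well above background on 0 arrays, and Vim was not called in either fraction. Of 6 macrophage markers Csf1r was called lower, by -1.67 on polysomes and -1.17 in subpolysomal RNA, and none of the others was called. The summed macrophage markers overlapped between the lines on polysomes (12.05 to 12.46 and 12.12 to 12.34). They overlapped in subpolysomal RNA too (11.87 to 11.98 and 11.91 to 12.13). The summed hepatocyte markers overlapped between the lines on polysomes (18.37 to 18.97 and 18.51 to 19). Ttr and Afp were called higher on polysomes (1.15 and 1.26) and in subpolysomal RNA (1.33 and 1.19). These were 2 of 10 in each fraction, with 0 called lower, beside 11.1% and 11.8% of all genes called higher. Each sum is weighted by its brightest probes, such as Krt18 (18.17 on scramble polysomes) and the macrophage marker Cd14 (12.12). It can therefore hide changes of dimmer markers. Fewer cells of a type and less RNA per cell cannot be told apart in such RNA, and the part of these markers in the changes of Igf2, Igfbp3 and Igfbp6 was not tested.

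The other binding proteins were not called in either fraction. Igfbp4, an inhibitor of IGF action that is cut by pappalysin-1, had signals of 11.02, 10.98, 11.12 and 10.70 on scramble polysomes and 10.84, 10.88, 10.21 and 10.41 on eIF6 shRNA polysomes. These overlapped, and the polysomal change was -0.37 with an interval of -0.82 to 0.08 (limma adjusted p = 0.26). The subpolysomal change was -0.13 (-0.58 to 0.33). Igfbp2, a binding protein of fetal and fasted liver, was well above background on 3 of 4 arrays in each polysomal group and on none of the subpolysomal arrays. Its polysomal change was 0.19 (-0.26 to 0.65; adjusted p = 0.62). Igfbp7, a matrix protein that binds IGFs weakly, was well above background on 7 arrays spread over all 4 groups, with signals from 2.47 to 4.10. Its polysomal change was 0.51 (-0.02 to 1.05; adjusted p = 0.18) and its subpolysomal change -0.08 (-0.61 to 0.46).

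The next comparison asked how the IGF mRNAs lie on the gradient within each line. In scramble cells 5 of the 9 genes were called higher on polysomes than in subpolysomal RNA (Igf2, Igfbp2, Igfbp3, Igfbp4 and Igfbp6), where 31.7% of all genes tested were. By limma 0 were called lower, and 0 were lower at an unadjusted p under 0.05, where 28.4% of all genes were called lower. In eIF6 shRNA cells 3 of 9 were called higher (Igfbp2, Igfbp3 and Igfbp6), where 32.1% of all genes were, and again 0 were lower, also unadjusted, where 28.7% of all genes were. Igf2 and Igfbp2 had passed the background filter through polysomal arrays alone, so the filter favoured their calls. Of the 6 genes well above background on every array, 3 were called higher in scramble cells and 2 in eIF6 shRNA cells. These shares depend on the scaling. With scaling to the 75th percentile the median of all genes was -0.20 and -0.23 in the 2 lines, with 2 lower and 4 higher in scramble cells and 3 lower and 2 higher in eIF6 shRNA cells. With the spike-ins it was 1.52 and 1.30, with 8 and 6 higher, and when the fractions were normalized separately it was 1.38 and 1.41, with 8 higher in both. Of all 19365 genes 12307 and 12709 were called in either direction with the 75th percentile, and 13808 and 11718 with the spike-ins. With separate fractions 16685 and 16246 were, so 8 of 9 lies near the share of all genes.

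Igfbp3 and Igfbp6 kept a higher polysomal signal in both lines under every scaling tried. The log2 ratio of Igfbp3 was 1.53 ± 0.22 (SE) in scramble cells and 1.29 ± 0.22 in eIF6 shRNA cells (limma adjusted p = 2.99e-05 and 1.53e-04). With 75th-percentile scaling the ratio in eIF6 shRNA cells was 0.52 and not called (adjusted p = 0.056). For Igfbp6 the ratios were 1.47 ± 0.10 and 1.02 ± 0.10 (adjusted p = 1.85e-08 and 8.91e-07). The groups did not overlap in either line for either gene.

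After quantile normalization the order of the 4 groups was the same for both. The signal was highest on scramble polysomes, followed by eIF6 shRNA polysomes, scramble subpolysomes and eIF6 shRNA subpolysomes. For Igfbp6 no neighbours in that order overlapped. For Igfbp3 the lowest array of eIF6 shRNA polysomes (4.77) lay below the highest of scramble subpolysomes (5.12).

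Igf2 was called higher on the polysomes of scramble cells, where the bound against the undetected subpolysomal signal was at least 1.83-fold (adjusted p = 2.92e-04). In eIF6 shRNA cells it was below background in both fractions, and no fold is given. Igfbp4 was higher on polysomes of scramble cells by 0.71 ± 0.21 (adjusted p = 0.0090), without overlap. In eIF6 shRNA cells the Igfbp4 difference was 0.47 with an interval of 0.02 to 0.92 and was not called (adjusted p = 0.068). It was called there without eIF6 shRNA subpolysomal replicate 2 (0.58, adjusted p = 0.042) or eIF6 shRNA polysomal replicate 3 (0.59, adjusted p = 0.031) and with 7 of the alternatives. These were slide as a block (adjusted p = 0.031), the 75th percentile (0.58), the spike-ins (2.11), separate fractions (2.18), normexp (0.45), the filter on all 16 arrays and an intensity trend. For Igfbp2 the bounds were at least 1.02-fold higher on polysomes in scramble and at least 1.04-fold in eIF6 shRNA cells, which is nearly no difference. The limma calls (adjusted p = 0.0069 and 0.021) belong to the measured differences of 0.75 and 0.61, with the subpolysomal arrays below background. With 75th-percentile scaling the measured difference in eIF6 shRNA cells turned to -0.19, and that in scramble cells was 0.10 and not called. Without eIF6 shRNA subpolysomal replicate 4 or eIF6 shRNA polysomal replicate 2 the Igfbp2 call in eIF6 shRNA cells was lost (0.51 and 0.49, adjusted p = 0.066 and 0.074).

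In the main fit the ligand Igf1 and both receptors were not called between the fractions, but this depended on the processing. Igf1r and Igf2r were called higher on polysomes in both lines with spike-in scaling and with separate fractions (1.36 to 2). In eIF6 shRNA cells Igf1 was called lower with the 75th percentile (-0.78), normexp, either stricter filter and the brightest probe. With separate fractions it was called higher there (0.90). The averaged Igf1 ratio was 0.00 in scramble and -0.15 in eIF6 shRNA cells. Its probes differed here too. At position 1027 the polysomal signal was lower than the subpolysomal one, with ratios of -0.56 and -0.83 in the 2 lines (adjusted p = 0.0038 and 1.81e-04), and the same probe read 7.59, 7.34, 7.34 and 7.77 on scramble polysomes and 8.34, 8.10, 7.86 and 8.02 in scramble subpolysomes. At position 3252 the ratio was -0.14 in scramble cells (adjusted p = 0.34) and -0.42 in eIF6 shRNA cells (adjusted p = 0.0065). At position 909 the ratios were 0.51 and 0.29, neither of them called (adjusted p = 0.20 and 0.46). The ratios of Igf1r were 0.16 and -0.14 and those of Igf2r -0.17 and 0.01.

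The last comparison was that of translational efficiency. By limma 0 of the 9 genes were called in either direction, where 1.11% of all genes tested were called lower and 0.403% higher. At an unadjusted p under 0.05, 2 of the 9 were lower and 0 higher, as were 1422 and 999 of the 19365 genes. For Igf2 12 of the 16 values were not well above background, so no size is given (adjusted p = 0.068). It was called without eIF6 shRNA polysomal replicate 1 (adjusted p = 0.022), when the fractions were normalized separately (adjusted p = 0.034) and with 3 further alternatives. The difference for Igfbp6 was -0.46 (-0.77 to -0.15; adjusted p = 0.17), and that for Igfbp3 was -0.25 (-0.92 to 0.43; adjusted p = 0.82). For the other 6 genes the adjusted p was between 0.55 and 0.91.

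Whether arrays with the same replicate number share a culture is not known. The 2 fractions were therefore set against each other within the slides, as a description with no test. Arrays of a slide share the slide and are not known to share a culture. The log2 ratios of Igfbp6 on the 4 slides were 1.504, 1.565, 1.337 and 1.492 in scramble cells and 1.14, 0.85, 1.01 and 1.07 in eIF6 shRNA cells. The eIF6 shRNA ratio was the lower one on 4 of 4 slides, by differences of -0.72 to -0.33, and the lines did not overlap. How many of all genes were apart in this way was not counted, so the separation is not shown to be particular to Igfbp6. When the fractions were joined by replicate number instead, the Igfbp6 ratios overlapped (1.14 to 1.70 against 0.72 to 1.18).

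**Figure D4:**
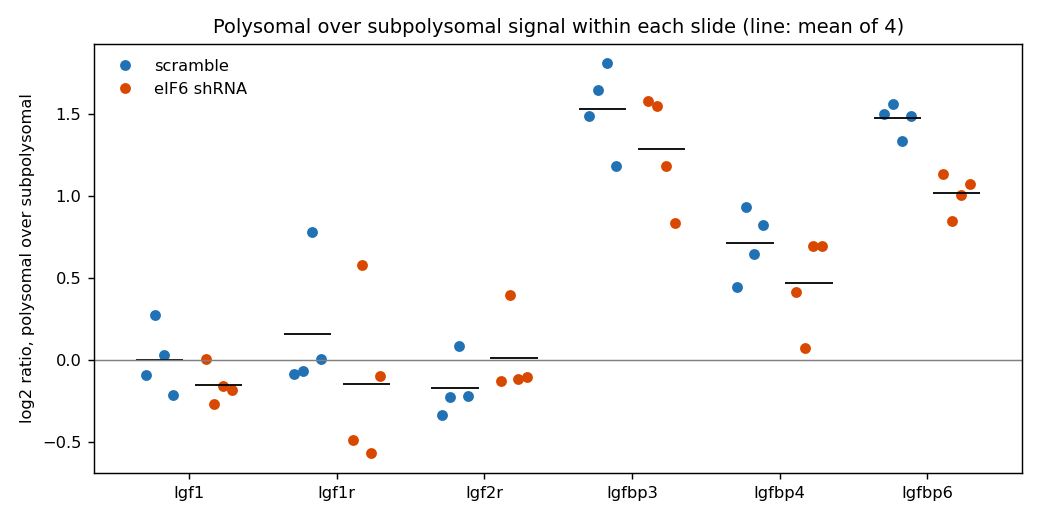
Log2 ratio of polysomal to subpolysomal signal within each slide (y axis) for the 6 IGF genes that were well above background on all 16 arrays (x axis), in scramble (blue) and eIF6 shRNA (orange) cells. Points are single slides and lines are means of 4. The ratios of Igfbp6 were apart (1.34 to 1.56 against 0.85 to 1.14), and those of the other 5 genes overlapped. The efficiency change of Igfbp6 was not called, its ratios overlapped when joined by replicate number, and the share of all genes that were apart was not counted.

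The rest of the pathway was taken from lists of 37 further genes, grouped by role, of which 32 were tested. On polysomes 7 of the 32 were called lower and 4 higher, beside 10.7% and 11.1% of all genes. In subpolysomal RNA 7 were called lower and 3 higher, beside 12.3% and 11.8%. For translational efficiency 1 was called lower and 0 higher (by limma, with 2 lower and 1 higher at an unadjusted p under 0.05). The medians of their differences were -0.07, -0.14 and 0.07. Among those called lower on polysomes, Stc1 and Grb14 had passed the background filter through scramble polysomes alone. Grb14 is also among those called lower in subpolysomal RNA, where it was well above background on 0 arrays of either line. With spike-in scaling the sign of Gnptab, Gnptg and Pcsk6 turned on polysomes, and the calls of Ghr, Jak2, Igfals, Pappa and Grb14 there were lost with the same sign. In subpolysomal RNA it left 1 of the 32 called lower, Igf2os, and 0 higher, with the calls of Ghr, Jak2, Igfals, Adam12, Htra1, Stc2, H19, Grb14 and Pcsk6 lost (adjusted p between 0.133 and 0.999).

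Upstream of IGF1, the growth hormone receptor Ghr was called lower in both fractions. Its signals ran from 10.47 to 10.79 on scramble polysomes and from 9.65 to 9.97 on eIF6 shRNA polysomes, and in subpolysomal RNA from 11.19 to 11.50 and from 10.41 to 10.60. The polysomal change was -0.84 ± 0.10 (SE; limma adjusted p = 1.72e-05) and the subpolysomal change -0.89 ± 0.10 (adjusted p = 1.38e-05). The kinase that this receptor activates, Jak2, was higher in both (0.59 ± 0.09 and 0.56 ± 0.09; adjusted p = 2.43e-04 and 4.51e-04), and Stat5a, Stat5b and Socs2 were not called. Igfals, the acid-labile subunit that completes the circulating complex of IGF and IGFBP3, was named after its values were seen. It was called lower on polysomes (-0.84, adjusted p = 0.0034), and in subpolysomal RNA, where the eIF6 shRNA arrays were not well above background, the bound was at least 1.61-fold lower (adjusted p = 1.92e-04).

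Of 5 tested genes for proteases of IGF binding proteins and for their inhibitors, 3 were called lower on polysomes and 0 higher. Of all genes tested 10.7% were called lower there and 11.1% higher. Among the 3, Stc1 had passed the background filter through scramble polysomes alone. Adam12, a metalloproteinase that cuts IGFBP3 and IGFBP5, ran from 6.08 to 6.40 on scramble polysomes and from 4.82 to 5.12 on eIF6 shRNA polysomes, a change of -1.27 ± 0.15 (limma adjusted p = 1.15e-05). In subpolysomal RNA it changed by -1.09 ± 0.15 (adjusted p = 6.57e-05). Pappa, which encodes pappalysin-1, was called lower on polysomes (-0.73 ± 0.20, adjusted p = 0.014), with signals of 4.73 to 4.99 in scramble and 3.69 to 4.73 in eIF6 shRNA cells that met within the rounding. The stanniocalcins bind and block that protease. Stc1, named after its values were seen, was well above background on the 4 scramble polysomal arrays alone, and its polysomal signal was at least 2.18-fold lower in eIF6 shRNA cells (adjusted p = 3.29e-06). It was also the 1 gene of the 32 called in translational efficiency (adjusted p = 0.0045). With 3 of its 4 groups below background no size is given, and the call was lost with the normexp background correction (adjusted p = 0.14). Stc2 was called higher in subpolysomal RNA (0.50 ± 0.13, adjusted p = 0.010) and not on polysomes (0.07). Htra1 was called lower in subpolysomal RNA (-0.29 ± 0.09, adjusted p = 0.026), and that call was lost without any 1 of 5 subpolysomal arrays with the replicate number as a block (adjusted p = 0.0504) and with 75th-percentile (-0.25, adjusted p = 0.057) or spike-in scaling (-0.53).

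**Figure D5:**
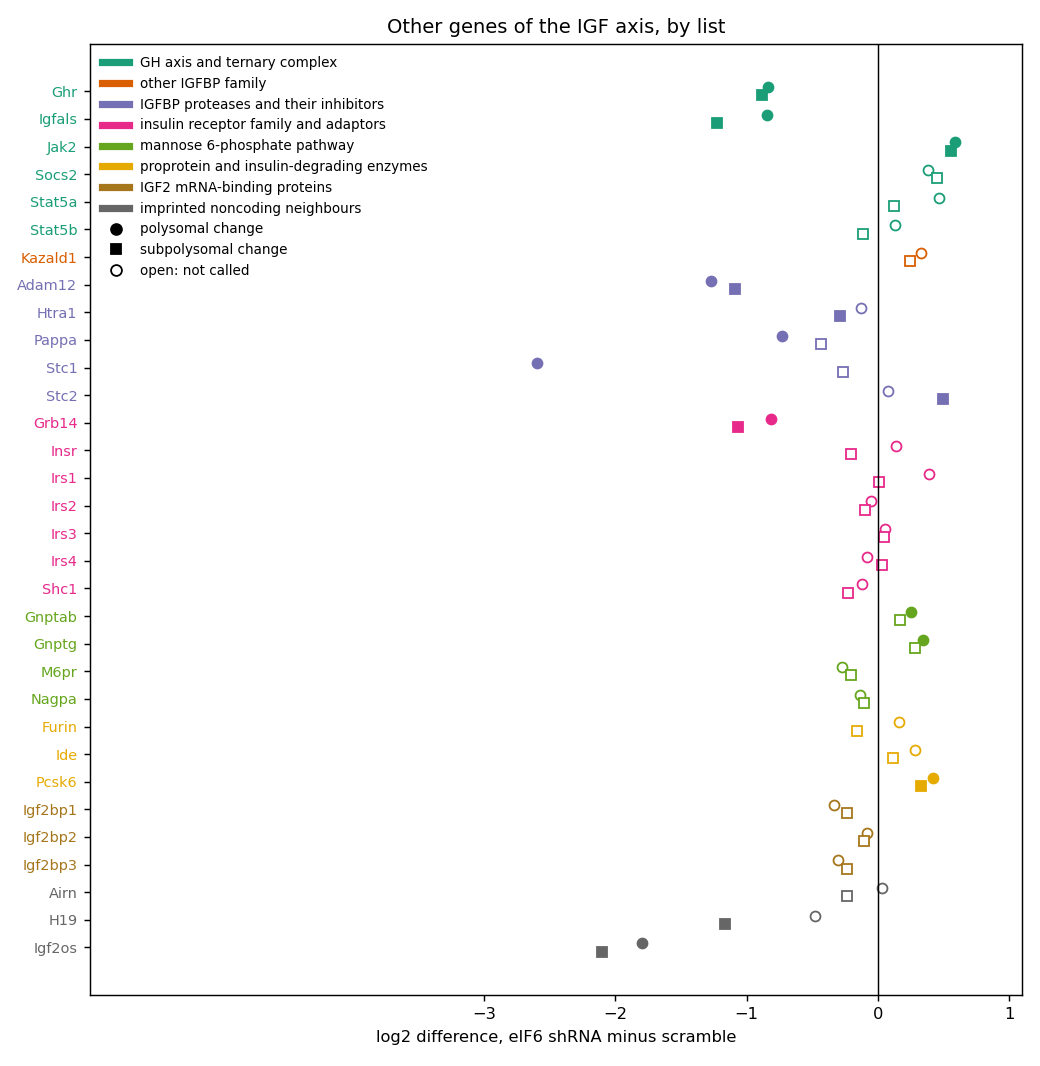
Polysomal (circles) and subpolysomal (squares) differences between eIF6 shRNA and scramble cells (log2, x axis) for the 32 other genes of the IGF axis that were tested, coloured by list. Filled symbols were called by limma and open ones were not. Stc1, Igf2os, Adam12, Grb14, Ghr, Igfals and Pappa were called lower on polysomes, and Jak2, Pcsk6, Gnptg and Gnptab higher, the last 3 of them with the opposite sign under spike-in scaling.

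Of 7 tested genes for the insulin receptor family and its adaptors, 6 were not called in either fraction. Insr, the insulin receptor, changed by 0.14 on polysomes (-0.33 to 0.61), and Irs1 by 0.39 (-0.35 to 1.12). The exception was the adaptor Grb14, named after its values were seen. It was well above background on 3 scramble polysomal arrays and on no other array, so it passed the background filter through that group alone. It was at least 1.15-fold lower on eIF6 shRNA polysomes (adjusted p = 0.021). This polysomal call was lost under several alternatives and without scramble polysomal replicate 1 or eIF6 shRNA polysomal replicate 2 (adjusted p = 0.071 and 0.065). In subpolysomal RNA Grb14 was called lower too (adjusted p = 0.0038), but both groups were below background there and no fold is given. The phosphotransferase subunits Gnptab and Gnptg, which make the mannose 6-phosphate tag that IGF2R recognizes, were called higher on polysomes (0.25 ± 0.08 and 0.34 ± 0.11), but their sign turned with spike-in scaling (-0.19 and -0.11). Both calls were lost in 6 of the 16 fits that left out 1 array. Pcsk6, a proprotein convertase, was called higher in both fractions (0.42 ± 0.09 and 0.33 ± 0.09; adjusted p = 0.0025 and 0.013), with a polysomal value of -0.03 under spike-in scaling. None of the 3 IGF2 mRNA-binding proteins, Igf2bp1, Igf2bp2 and Igf2bp3, was called in either fraction, and all 6 differences lay between -0.34 and -0.08.

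At the Igf2 locus 2 noncoding RNAs were also called, and they are named after their values were seen. The probe of Igf2os, the antisense transcript of Igf2, lies 16.5 kb from the Igf2 probe and on the opposite strand. Igf2os was well above background on 4 of 4 scramble arrays in each fraction and on 0 and 1 of 4 eIF6 shRNA arrays. Its signal ran from 3.87 to 4.04 on scramble polysomes and from 1.82 to 2.73 on eIF6 shRNA polysomes, at least 2.27-fold lower (limma adjusted p = 0.0019). In subpolysomal RNA the measured difference was -2.10 ± 0.36 (adjusted p = 6.03e-04), with 1 of the 4 eIF6 shRNA arrays well above background. H19, the maternally expressed noncoding RNA whose probe lies 77.2 kb from that of Igf2, was found mainly in subpolysomal RNA. There its signal ran from 6.78 to 7.53 in scramble and from 5.726 to 5.998 in eIF6 shRNA cells (-1.16 ± 0.21, adjusted p = 8.17e-04), a call lost without the background filter (-0.62, adjusted p = 0.43). On polysomes it was well above background on 1 of 4 arrays of each line. Airn, the noncoding RNA of the Igf2r locus, was not called in either fraction (0.03 and -0.23).

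Igfbp1, whose probe lies 4.15 kb from an Igfbp3 probe on the opposite strand, was well above background on 0 of 16 arrays and was not tested. The other tested relative of the family, Kazald1, was not called (0.33 and 0.24; adjusted p = 0.073 and 0.17).

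As a description, the genes whose log2 signal over the 16 arrays was most like that of a called member were sought among 14580 others that were well above background on every array. The points share 4 groups of 4 arrays, so a likeness here is mostly one of group means. Arrays of Igfbp6 were most like those of Dctd, Ly6c1 and R3hcc1 (Pearson r = 0.99, 0.99 and 0.98), and those of Igfbp3 most like those of Hmgb2, Strap and Arf4 (r = 0.98 for all 3). The likeness was lower for the averaged Igf1, with AI607873 (0.88), Trmt10c (0.87) and Tia1 (0.85). Of these 9 genes, Arf4 came close to Igfbp3 in its polysomal change (-1.03) and in its ratio in scramble cells (1.43). The subpolysomal change was -0.60 for Arf4 and -0.83 for Igfbp3. Dctd had a polysomal change of -0.89, a subpolysomal change of -0.57 and a ratio of 1.30. For Igfbp6 these were -1.03, -0.57 and 1.47.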

How the data were processed

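Per the file headers, Feature Extraction 10.7.3.1 made the background-subtracted processed intensity values deposited for 16 one-colour arrays, scanned at 5 micrometres; the labels give version 10.7.7.1. The authors also deposited a table of normalized log2 values, used as an alternative. Here log2 of the processed intensity was taken, outlier and control spots were left out, and spots of a probe were averaged. Probes well above background on at least 2 of the 4 arrays of a group were kept (25260), quantile-normalized over the 16 arrays and averaged per gene name; no value was missing for 19338 of the 19365 genes. Quantile normalization gives all arrays the same distribution, so a change shared by most mRNAs is not measured. limma 3.58.1 in R 4.3.3 (with the data.table package, version 1.17.8) was fitted with 4 group means, with a threshold of 0.05 on Benjamini-Hochberg adjusted p-values over all genes. It was tested on simulated data. Figures were drawn with Python 3.11.15 and matplotlib 3.10.9. A bound sets the brighter group against the lowest signal called well above background on each array of the dimmer one.

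The genes and lists were chosen with earlier results of these data known. Named with values were the 10 genes, Eif6, and those genes of the other lists that were called in a change between the lines and well above background on all 16 arrays, with at most 8 per comparison, plus 3 most similar genes for each called member detected on all arrays. List genes named with values outside that rule were chosen after their values were seen.

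Alternatives were other scalings, filters, a normexp background correction (offset 50), the brightest probe, the deposited log2 values, slide or replicate number as a block, an intensity trend, and leaving out each array. Each Igf1 probe alone was added after the data were seen. Same-numbered arrays did not all deviate together (correlations of -0.211 to 0.412, the highest for the polysomal arrays numbered 4), so the numbers were not taken as pairs. These correlations cannot exclude that arrays with the same number share a culture. The two-sided exact permutation test of efficiency that was planned on ratios by replicate number gave p from 0.0286, the smallest 4 against 4 allow (Igf2, largely undetected), to 0.714, with 0.257 the lowest after adjustment over the 9 genes, and is not used. RefSeq symbols matched every member's probe accession except 1 of 5 for Igf1.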

Additional observations from a re-analysis of the deposited data

Results flagged for a closer look

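In 3 of 36 groups of 4 arrays (9 genes in 4 groups) 1 array stood apart from the other 3, with a gap to its nearest neighbour of more of the range of the group than Dixon's 95% critical value allows. Chance alone flags about 1 in 20 groups. Igf2r read 8.43 on scramble polysomal replicate 4, where the other 3 arrays read 7.88 to 7.94. Igfbp4 read 10.67 on scramble subpolysomal replicate 4, where the others read 10.05 to 10.16. Igfbp6 read 9.005 on eIF6 shRNA polysomal replicate 4, where the others read 9.33 to 9.37. All 3 are arrays with the number 4, from 3 different groups.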

How the results depend on the processing

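The polysomal calls of Igf2, Igfbp3 and Igfbp6 held under every alternative in which the gene was tested, and Igf2 was not tested with a filter on all 16 arrays. They had differences of -3.37 to -0.38, -1.74 to -0.54 and -1.54 to -0.91, those of Igf2 being measured against signals below background. Detection limits Igf2, Igfbp2 and Igfbp7 most, and 4 arrays per group leave wide intervals for Igf1r and Igf2r. The causes of the shifts below were not tested.

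The number of the 9 genes called on polysomes was 2 with a filter on all 16 arrays. In subpolysomal RNA it was 0 with spike-in scaling and 1 with normexp. For translational efficiency it was 1 when the fractions were normalized separately, with normexp and with a filter on all 4 arrays of a group. With the replicate number as a block, which was not taken as a pairing here, it was also 1 (Igf2, adjusted p = 0.0488). That block called Igf2 in subpolysomal RNA as well (-0.88, adjusted p = 0.045). For the ratio in scramble cells the number was 8 with spike-in scaling, 8 with separate fractions and 3 with the filter on 16 arrays. Over all genes the calls there were 13808, 16685 and 9988, against 11631 in the main fit. In eIF6 shRNA cells the number was 5 with the 75th percentile, 6 with the spike-ins and 8 with separate fractions. Over all genes the calls there were 12709, 11718 and 16246, against 11777 in the main fit.

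Leaving out 1 array gave 3 to 4 genes called on polysomes, 2 to 3 in subpolysomal RNA, 0 to 1 for efficiency, 5 to 6 for the scramble ratio and 2 to 4 for the eIF6 shRNA ratio. None of the values that turned sign in those fits belonged to a called difference. On polysomes they were Igf1r (-0.438 to 0.0265), Igf2r (-0.127 to 0.131) and Igfbp2 (-0.0114 to 0.312), in subpolysomal RNA Igfbp4 (-0.231 to 0.0765), Igfbp7 (-0.281 to 0.091) and Eif6 (-0.0277 to 0.0568), in the scramble ratio Igf1 (-0.0545 to 0.0532) and Igf1r (-0.08 to 0.297), and in the eIF6 shRNA ratio Igf1r (-0.37 to 0.00749), Igf2 (-0.359 to 0.172), Igf2r (-0.115 to 0.0817) and Igfbp7 (-0.0849 to 0.219).

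Spike-in scaling turned the polysomal values of Igf2r (-0.476), Igfbp2 (-0.369), Igfbp7 (-0.0596), Gnptab (-0.189), Gnptg (-0.108) and Pcsk6 (-0.0341), the subpolysomal values of Igf1r (-0.185) and Eif6 (-0.216), the scramble ratios of Igf2r (1.45) and Igfbp7 (0.58), and the eIF6 shRNA ratios of Igf1 (0.747), Igf2 (0.298) and Igf1r (1.5). With separate fractions the scramble ratios of Igf2r (1.36) and Igfbp7 (0.422) and the eIF6 shRNA ratios of Igf1 (0.897), Igf2 (0.541) and Igf1r (1.59) turned. The 75th percentile turned Igf2r on polysomes (-0.00528), the scramble ratio of Igf1 (-0.484) and the eIF6 shRNA ratios of Igf2r (-0.062), Igfbp2 (-0.189) and Igfbp7 (-0.72). The eIF6 shRNA ratio of Igf2 was 0.338 with normalization before the filter, 0.338 without a filter and 0.345 in the authors' table. For Igf1 the scramble ratio was -0.0701 with normexp, -0.0177 with the filter on 4 arrays, -0.234 with that on 16, -0.565 with the brightest probe (position 1027) and -0.137 at position 3252. Its subpolysomal value was 0.19 with the filter on 16 arrays, 0.165 with the brightest probe and 0.221 at position 3252, its eIF6 shRNA ratio 0.293 at position 909 and 0.357 at 889, and its efficiency 0.162 at 889.

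The averaged polysomal call of Igf1 was lost with spike-in scaling, normexp, the filter on 16 arrays, no filter, the brightest probe and each probe alone. Over all genes, spike-in scaling left 1157 calls on polysomes in place of 4216, 388 in subpolysomal RNA in place of 4684 and 33 for efficiency in place of 292, and efficiency gave 486 calls with the 75th percentile, 470 with separate fractions and 567 with normexp.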
